A study of Mus musculus with 23 samples.

Results

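Glucocorticoid-induced genes were described here as a set of 30 genes that the glucocorticoid receptor is known to induce and that were looked up by symbol. All 30 were found among the 18578 genes of the table, and all 30 passed the filter on low values (a mean of at least 10 normalized counts), which 17118 genes passed. All are annotated as protein coding. RNA sequencing of brain covered 23 libraries in 4 groups of male C57BL/6J mice. The HT shock group (6 libraries) carried one edited Grin2b allele, C456Y, and received foot-shock, and the HT control group (6 libraries) had that genotype without foot-shock. The WT shock group (5 libraries) was wild type with foot-shock, and the WT control group (6 libraries) was wild type without it. The labels call the HT genotype heterotype, the series text calls it heterozygous, and the gene's product, GluN2B, is part of NMDA-type glutamate receptors. The labels give an age of postnatal day 17 and the series text adult ages, so the age of the animals could not be settled. Neither the brain region nor the time between shock and collection is stated in the labels. The gene-level table gives no value for the edited allele itself, so the genotype labels could not be checked against it. Nothing in the labels says that each library came from its own animal, so p-values here reflect library-to-library spread that may be technical in part or in whole.

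Glucocorticoids are adrenal steroid hormones released in stress. They bind the glucocorticoid receptor, which an Hsp90 chaperone complex holds ready in the cytoplasm, and the bound receptor enters the nucleus and attaches as a dimer to palindromic DNA sites near its target genes. Among the genes it induces are a brake on the receptor itself (the co-chaperone gene Fkbp5), restraints on inflammatory transcription factors (Nfkbia and Tsc22d3), enzymes that spare glucose, and genes of brain endothelium and astrocytes.

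Values are normalized counts per gene as the authors deposited them, with totals between 30980153 and 32569746 per library. These totals were set by the normalization and do not show sequencing depth, which is unknown. Summed markers of neurons lay between 267414 and 297420 normalized counts in all libraries (11 genes, Snap25 and Syt1 among them), so the labelled tissue carried its defining genes. On the first principal component of all genes tested (12.9% of the variance), HT control replicate 6 stood at 31.3, beyond the HT shock libraries (11.4 to 26.0), with the other HT control libraries at -12.7 to 5.17 and all WT libraries at -18.5 to 1.63. WT shock replicate 3 stood apart in the glucocorticoid-induced genes themselves. Counts of called members that changed when either library was left out are given both ways.

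Promoter windows were taken from RefSeq (GRCm38.p6), from 250 bases before to 50 bases after each annotated start. They were available for 26 of the 30 genes in 42 windows; Cdo1, Angptl4, Xdh and Zbtb16 were not matched. The full receptor site was searched on both strands by its palindromic core, an ACA arm and a TGT arm around a short free spacer, with an outer G and an outer C. It was present in 5 of the 42 windows (11.9%), belonging to 4 genes, against 156 of all 32851 windows (0.475%). The 5 windows include a pair for Fam107a that overlap in all but 2 bases and hold the same match. A single arm of the site, TGTTCT, which can overlap the full site, was in 8 windows (19.05%) against 18.97% of all windows. The pattern TGCNCNC, called the metal response core here, is a looser form of the letters bound by the zinc sensor Mtf1. A match to it need not be a site of Mtf1. The pattern was in 26 windows (61.9%) against 51.03% of all. The circadian E-box CACGTG was in 5 windows (11.9%) against 7.15% of all, and the cAMP response motif TGACGTCA was in 1 window (2.381%), that of Errfi1, against 1.79% of all. A match is a description of letters and not of binding, and no match refers only to these windows. The first 4 sequences are shown because they hold the full receptor site, which is in capitals. Mt2, the neighbour gene of Mt1, is shown because its window holds 6 matches of the loose pattern TGCNCNC, in capitals, and none of the full receptor site. All are written 5' to 3' on the strand of the gene.
Sgk1 (chr10:21993640-21993939, plus strand): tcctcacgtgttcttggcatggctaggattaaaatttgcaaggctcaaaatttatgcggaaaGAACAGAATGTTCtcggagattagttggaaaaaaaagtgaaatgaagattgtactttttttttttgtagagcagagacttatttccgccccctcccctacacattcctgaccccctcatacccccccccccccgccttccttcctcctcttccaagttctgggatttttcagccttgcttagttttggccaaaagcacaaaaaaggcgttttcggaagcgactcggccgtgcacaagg
Map3k6 (chr4:133240568-133240867, plus strand): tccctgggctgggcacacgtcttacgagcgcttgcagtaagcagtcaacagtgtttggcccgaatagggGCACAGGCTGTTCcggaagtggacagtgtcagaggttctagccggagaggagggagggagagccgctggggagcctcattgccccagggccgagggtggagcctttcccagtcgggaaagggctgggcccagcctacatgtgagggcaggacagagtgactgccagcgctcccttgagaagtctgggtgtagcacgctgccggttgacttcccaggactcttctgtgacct
Mt1 (chr8:94178839-94179138, plus strand): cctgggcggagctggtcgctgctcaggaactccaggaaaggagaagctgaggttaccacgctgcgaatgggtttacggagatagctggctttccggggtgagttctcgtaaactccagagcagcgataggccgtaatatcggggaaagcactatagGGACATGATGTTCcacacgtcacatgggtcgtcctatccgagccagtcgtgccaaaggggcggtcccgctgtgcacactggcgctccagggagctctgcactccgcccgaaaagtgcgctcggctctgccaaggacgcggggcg
Fam107a (chr14:8309730-8310029, minus strand): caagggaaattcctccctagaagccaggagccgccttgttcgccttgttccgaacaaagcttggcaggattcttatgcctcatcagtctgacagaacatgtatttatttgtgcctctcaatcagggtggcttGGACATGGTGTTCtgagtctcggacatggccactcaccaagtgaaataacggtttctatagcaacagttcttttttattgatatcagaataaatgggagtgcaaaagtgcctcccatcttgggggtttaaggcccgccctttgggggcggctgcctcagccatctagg
Mt2 (chr8:94172368-94172667, plus strand): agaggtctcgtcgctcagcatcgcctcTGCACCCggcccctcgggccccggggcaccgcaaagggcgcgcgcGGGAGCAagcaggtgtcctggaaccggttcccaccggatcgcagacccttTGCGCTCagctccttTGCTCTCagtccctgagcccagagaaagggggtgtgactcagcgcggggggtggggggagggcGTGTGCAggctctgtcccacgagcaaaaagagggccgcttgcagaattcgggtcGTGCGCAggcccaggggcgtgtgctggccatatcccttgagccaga

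Relative to the annotated start, the first base of the full site lay at -188 in Sgk1, -181 in Map3k6, -94 in Mt1 and -118 in Fam107a. With all libraries, none of the 4 genes passed in HT shock against WT shock below. In genotype averaged over treatments, Sgk1 and Fam107a are among the 8 of 30 members that passed as lower in HT. Map3k6 and Mt1 were below 0 there too and did not pass. Whether the site has a part in this was not tested.

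Seen library by library, the widest deviations of the set belonged to single libraries of the WT groups. For each library, the log2 deviation of each gene from its mean over the 23 libraries was averaged over the 30 genes. As mean ± SD over libraries, this deviation was -0.0886 ± 0.0562 for the 6 HT shock libraries and -0.0849 ± 0.121 for the 6 HT control libraries. It was 0.147 ± 0.232 for the 5 WT shock libraries and 0.0509 ± 0.170 for the 6 WT control libraries. All 6 HT shock libraries lay below 0, between -0.171 and -0.0193. WT shock replicate 3 was highest at 0.499, WT control replicate 6 followed at 0.338, and HT control replicate 4 was lowest at -0.222. The rest of WT shock was divided, with replicates 1 and 5 at 0.182 and 0.184 and replicates 2 and 4 at -0.0554 and -0.0733.

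WT shock replicate 3 held the highest of the 23 values for 23 of the 30 genes, the highest of its group for 29, and a value above its group's mean for all 30. The 7 genes that peaked elsewhere were Tsc22d1 (HT shock replicate 2), Il6ra (HT shock replicate 6), Per1 (HT control replicate 2), Pxdn (HT control replicate 1), Galnt15 (WT shock replicate 1), and Plekhf1 and Angptl4 (both WT control replicate 6). WT control replicate 6 was the highest of its group for 23 genes and above its group's mean for 29. HT control replicate 2 was the highest of its group for 14 genes, with a mean deviation of 0.102. The median coefficient of variation over the 30 genes was 9.25% in HT shock, 13.1% in HT control, 16.8% in WT shock and 13.7% in WT control.

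**Figure D1:**
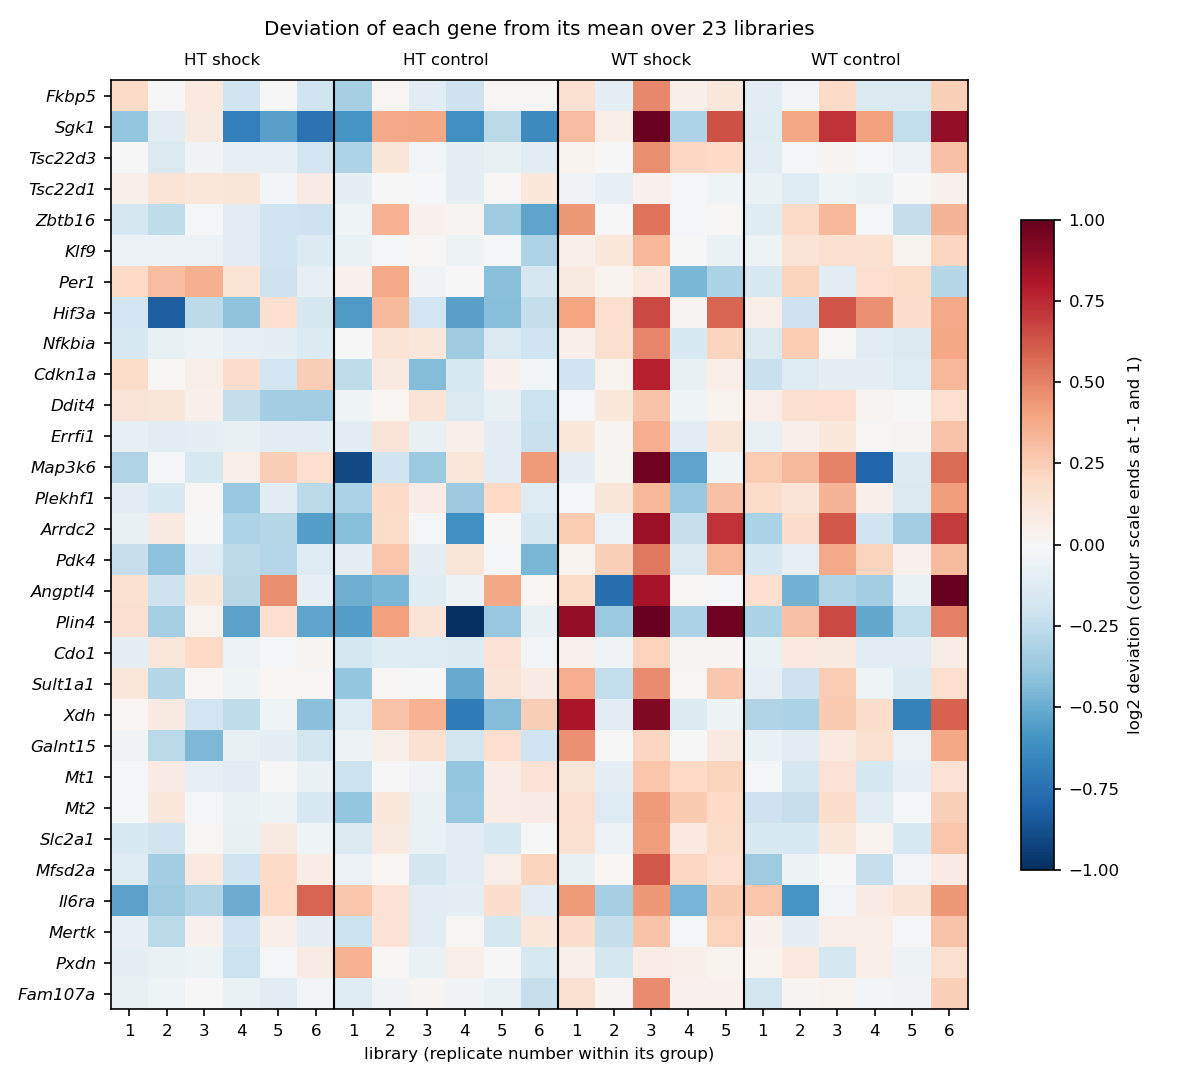
Log2 deviation of each of the 30 genes (rows) from its mean over 23 libraries, by library (columns, numbered within HT shock, HT control, WT shock and WT control). WT shock replicate 3 is red in nearly every row and holds the highest value for 23 of 30 genes.

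**Figure D2:**
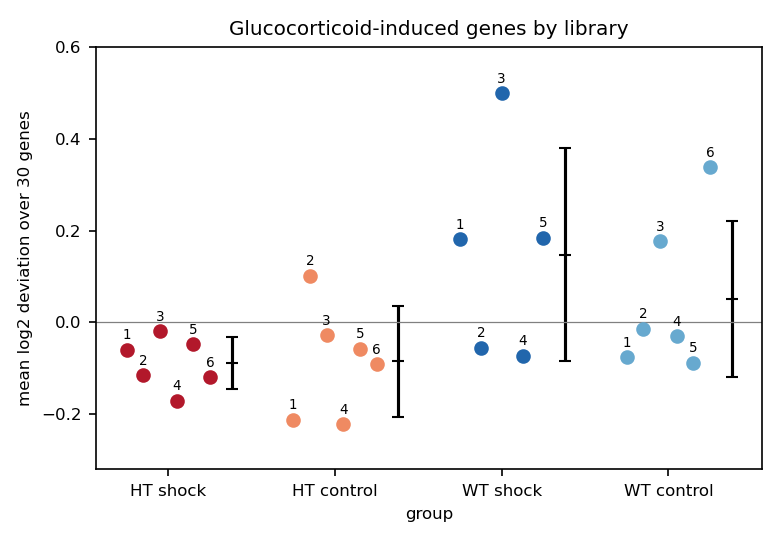
Mean log2 deviation over the 30 genes, 1 numbered point per library, with the group mean and SD beside the points. HT shock libraries lie between -0.171 and -0.0193, and WT shock replicate 3 lies at 0.499.

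The first comparison, HT shock against WT shock, asks how the genotypes differed after foot-shock. Hif3a, Tsc22d3, Klf9, Pdk4 and Galnt15 were lower in HT shock and none of the 30 genes was higher (limma, Benjamini-Hochberg adjusted p under 0.05 over all genes tested). Thus 5 of 30 genes fell, where 5.33% of all genes tested were lower and 3.95% higher (9.28% in either direction). At an unadjusted p under 0.05 there were 18 members and 27.9% of all genes. Of the 30 log2 differences, 28 were below 0, as were 49.2% of those of all genes, and the median was -0.21 over the set and 0.004 over all genes. Differences are on the scale of log2(normalized count + 1), which understates changes of low genes. Fewer cells of a type and less RNA per cell cannot be told apart in such tissue samples.

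The count rested on single libraries. It was 0 without HT shock replicate 1 (1.27% of all genes tested were lower then), HT shock replicate 2 (1.57%) or WT shock replicate 3 (2.06%). It was 1 without HT shock replicate 3 (1.84%), HT shock replicate 4 (2.73%) or WT shock replicate 5 (2.99%), 2 when WT shock replicate 1 was omitted (2.56%) and 3 when WT shock replicate 2 was (1.87%). In each of these omissions the share of all genes that were lower was thus below 5.33% too. Without HT control replicate 6, which enters only the shared estimate of spread, 7 genes were lower and 1, Tsc22d1, was higher (9.98% and 7.1% of all genes). The estimates moved less than the count when HT shock libraries were omitted. Without HT shock replicate 1 the median of the set was -0.21 with 28 differences below 0, and without replicate 2 it was -0.20 with 27. Without WT shock replicate 3, the median of the set was -0.13 and 24 of 30 differences were still below 0. With HT control replicate 6 and WT shock replicate 3 both left out, an alternative added after seeing the data, Pdk4 and Galnt15 were lower and Tsc22d1 higher (7.44% of all genes were lower and 5.05% higher).

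The second comparison, genotype averaged over treatments, takes the mean of the HT minus WT differences after shock and without shock, and so uses all 23 libraries. Hif3a, Klf9, Tsc22d3, Sgk1, Pdk4, Galnt15, Errfi1 and Fam107a were lower in HT and none was higher, 8 of 30 genes, where 8.62% of all genes tested were lower and 5.42% higher (14.0% in either direction). At an unadjusted p under 0.05 there were 17 members and 31.3% of all genes. No member separated all HT from all WT libraries, as 0.0234% of all genes did with HT lower and 0.00584% with HT higher. Differences were below 0 for 28 of 30 genes (48.6% of all genes), with a median of -0.16 over the set and 0.004 over all genes. Hif3a, Klf9, Pdk4 and Tsc22d3 passed with each of the 23 libraries left out in turn. Sgk1 and Errfi1 passed in 22 of the 23, Galnt15 in 13 and Fam107a in 9. Without WT shock replicate 3 the count was 4 (6.26% of all genes), and with HT control replicate 6 left out as well it was 2, Hif3a and Klf9 (5.65% of all genes). Without WT shock replicate 4 it was 12 (8.48% of all genes).

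**Figure D3:**
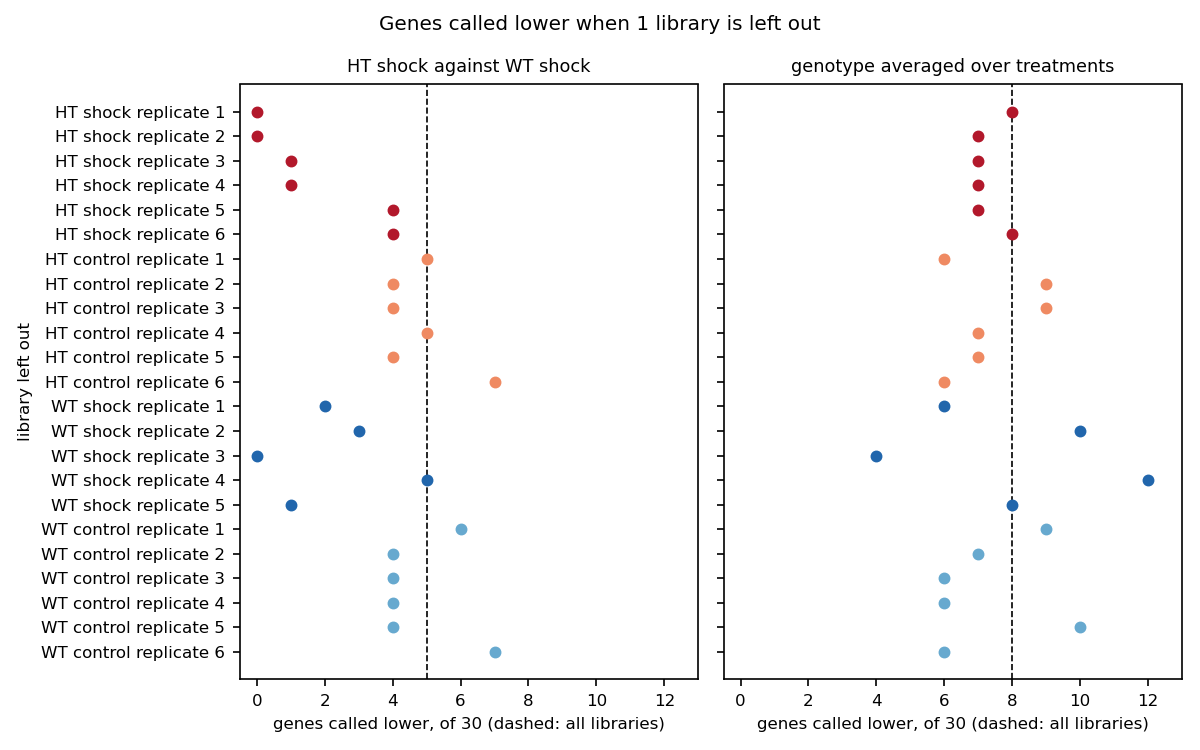
Number of the 30 genes called lower (horizontal axis) when the library named on the vertical axis is left out, for HT shock against WT shock and for genotype averaged over treatments; dashed lines mark the counts with all libraries, 5 and 8. Without WT shock replicate 3 the counts are 0 and 4.

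Without foot-shock, HT control against WT control, no member passed, and none of all genes tested did (0.0%, with 1895 genes, 11.1%, at an unadjusted p under 0.05). Of the 30 differences 27 were below 0 (50.2% of all genes), with a median of -0.10. At an unadjusted p under 0.05 there were 3 members, Hif3a (-0.52 ± 0.16, limma adjusted p = 0.340), Klf9 (-0.18 ± 0.06, 0.340) and Sgk1 (-0.56 ± 0.25, 0.431). Tsc22d3 differed by -0.10 ± 0.07 (0.583) and Per1 by -0.04 ± 0.13 (0.932). Above 0 stood Mfsd2a at 0.09 ± 0.10 (0.742), Tsc22d1 at 0.03 ± 0.04 (0.776) and Pxdn at 0.01 ± 0.07 (0.960). Without WT control replicate 6 the median was -0.05 and 22 differences were below 0. Cell type markers lay on both sides of 0 here, with none passing. Above 0 were 14 of 15 endothelial markers (median 0.19), 13 of 13 of mural cells (0.21) and 12 of 12 of microglia (0.24). So were 10 of 10 of choroid plexus and ependyma (0.29) and 5 of 5 of blood (0.16). Below 0 were 10 of 13 of oligodendrocytes (-0.10), 9 of 14 of astrocytes (-0.01) and 7 of 11 of neurons (-0.03). Their part in the values of the set was not tested.

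Among the regulators of transcription and signalling (9 genes), 3 were lower after shock and 4 in the average over treatments. Hif3a (ENSMUSG00000004328, GRCm38 chromosome 7, 17031507 to 17062427, minus strand) encodes an alpha subunit of the hypoxia-inducible factors, some forms of which restrain the other family members. It had 176 to 352 normalized counts in HT shock (median 268) and 211 to 393 in HT control (median 249). In WT shock replicates 1 to 5 it had 412, 352, 494, 318 and 468 normalized counts, and in WT control 271 to 483 (median 380). The WT groups stood above the HT groups by their medians, with overlap in each pair. Its log2 difference was -0.64 ± 0.17 in HT shock against WT shock (SE, limma adjusted p = 0.0266) and -0.58 ± 0.12 in the average over treatments (limma adjusted p = 0.0048).

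Klf9 (ENSMUSG00000033863, chromosome 19, 23141226 to 23168134, plus strand) encodes a Krüppel-like zinc finger transcription factor. It had 6117 to 6737 normalized counts in HT shock (median 6599) and 5669 to 7058 in HT control (median 6834). WT shock replicates 1 to 5 had 7272, 7542, 8835, 7014 and 6708 normalized counts, and WT control 6775 to 8113 (median 7734). After shock the groups overlapped only through WT shock replicate 5, which lay just under the highest HT shock library. The difference was -0.19 ± 0.06 after shock (limma adjusted p = 0.0469) and -0.19 ± 0.04 in the average (0.0073).

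Tsc22d3 (ENSMUSG00000031431, chromosome X, 140539528 to 140600659, minus strand) encodes the glucocorticoid-induced leucine zipper protein, which restrains inflammatory transcription factors. It had 2504 to 2851 normalized counts in HT shock (median 2691) and 2309 to 3105 in HT control (median 2683). WT shock replicates 1 to 5 had 2921, 2844, 3942, 3286 and 3277, and WT control 2653 to 3486 (median 2821). Only WT shock replicate 2 reached into the range of HT shock. The difference was -0.27 ± 0.08 after shock (limma adjusted p = 0.0309) and -0.18 ± 0.05 in the average (0.0224).

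Sgk1 (ENSMUSG00000019970, chromosome 10, 21882184 to 21999903, plus strand), whose kinase regulates ion channels and transporters, carried the largest difference of the 30 genes and also a wide spread. Its window with the full receptor site is the first of the sequences printed above. It had 1677 to 2975 normalized counts in HT shock (median 2028) and 1798 to 3663 in HT control (median 2093). WT shock replicates 1 to 5 had 3463, 2926, 5541, 2263 and 4359, and WT control 2367 to 5160 (median 3685). The HT shock range reached past 2 of the 5 WT shock libraries, replicates 2 and 4. The difference was -0.73 ± 0.27 after shock, which did not pass (limma adjusted p = 0.0805), and -0.65 ± 0.18 in the average, which did (0.0258).

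Fkbp5, the co-chaperone that lowers the receptor's affinity for hormone and is widely read as a marker of glucocorticoid action, differed little. It had 1054 to 1383 normalized counts in HT shock (median 1206) and 961 to 1225 in HT control (median 1170). In WT shock, replicates 1 to 5 had 1344, 1129, 1688, 1253 and 1309, and WT control 1094 to 1425 (median 1154). HT shock and WT shock overlapped over most of their ranges, WT shock replicate 3 being the exception. Differences were -0.16 ± 0.09 after shock (limma adjusted p = 0.280), -0.10 ± 0.09 without shock (0.665) and -0.13 ± 0.07 in the average (0.174). The shock differences of Fkbp5 were 0.08 ± 0.09 in HT (0.691) and 0.14 ± 0.09 in WT (0.998).

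The 2 members above 0 after shock were both regulators. Tsc22d1, of the same leucine zipper family as Tsc22d3, had 9685 to 10804 normalized counts in HT shock (median 10531), against 9599, 9310, 10144, 9733 and 9576 in WT shock replicates 1 to 5, a difference of 0.11 ± 0.04 (limma adjusted p = 0.0743). Only the lowest HT shock library and WT shock replicates 3 and 4 lay within the other group's range. Its average over treatments was 0.07 ± 0.03 (0.0827). Per1, a repressor of the circadian clock that activity and glucocorticoids both induce, had 3613 to 5334 in HT shock (median 4691), against 4433, 4269, 4468, 3036 and 3344 in WT shock. The groups overlapped widely. That difference was 0.23 ± 0.14 (0.285), and the average over treatments was 0.10 ± 0.10 (0.520). Zbtb16, a zinc finger transcription factor, stood at -0.36 ± 0.14 after shock (0.0914), and Nfkbia, the inhibitor of NF-kappaB, at -0.25 ± 0.10 (0.118).

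**Figure D4:**
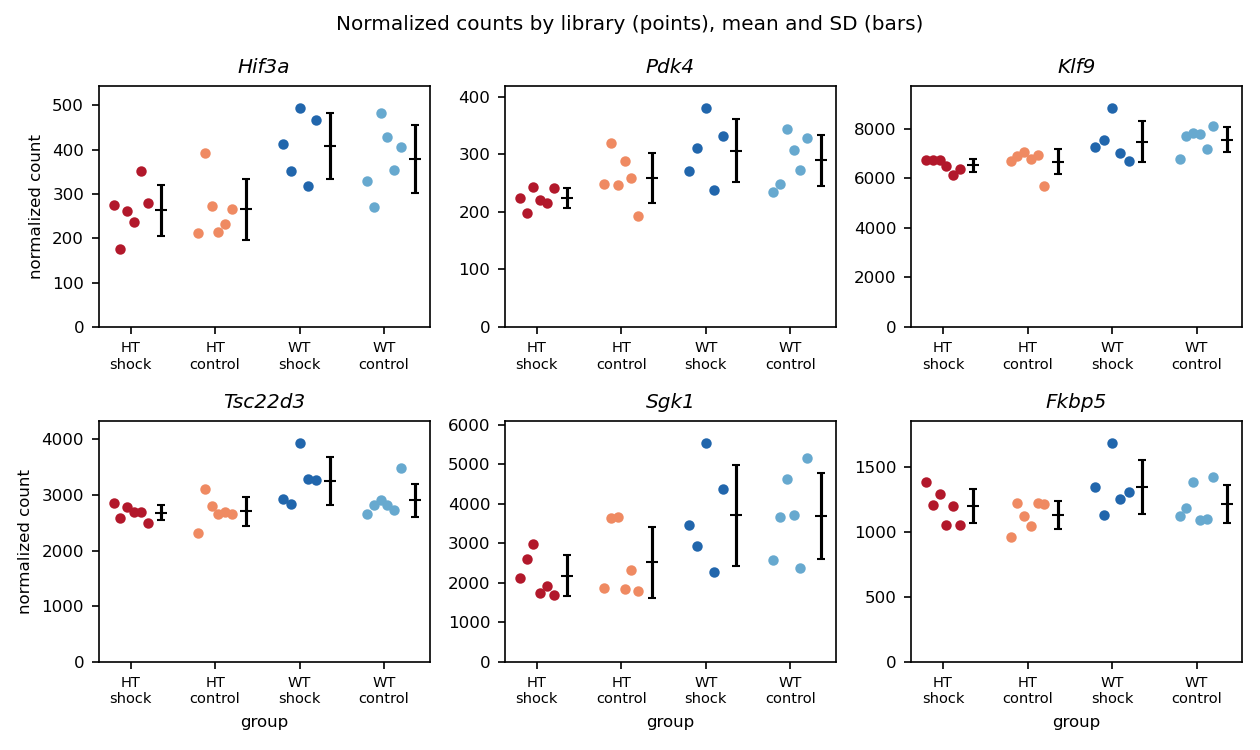
Normalized counts of Hif3a, Pdk4, Klf9, Tsc22d3, Sgk1 and Fkbp5, 1 point per library, with the group mean and SD beside the points and vertical axes from 0. Hif3a medians are 268 and 249 in HT shock and HT control and 412 and 380 in WT shock and WT control, while Fkbp5 differs little between groups.

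Among the genes of growth and stress signalling (6 genes), none passed after shock and 1, Errfi1, was lower in the average over treatments. Errfi1 (ENSMUSG00000028967, chromosome 4, 150853919 to 150868892, plus strand) encodes an inhibitor of the epidermal growth factor receptor. It had 1024 to 1052 normalized counts in HT shock (median 1038), and 948 to 1214 in HT control (median 1041). For WT shock, replicates 1 to 5 gave 1195, 1131, 1429, 1025 and 1208, and WT control 1056 to 1354 (median 1141). In WT shock only replicate 4 fell into the range of HT shock. The difference was -0.20 ± 0.07 after shock (limma adjusted p = 0.0693) and -0.16 ± 0.05 in the average (0.0269).

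Ddit4, an inhibitor of the growth kinase complex mTORC1, stood at -0.18 ± 0.08 after shock (limma adjusted p = 0.173), and Arrdc2, an arrestin-domain gene, at -0.50 ± 0.22 (0.145). Plekhf1, which encodes an endosomal lipid-binding protein, stood at -0.24 ± 0.12 (0.213). The cell-cycle inhibitor Cdkn1a differed by -0.04 ± 0.13 (0.873) and the MAP kinase kinase kinase gene Map3k6 by -0.07 ± 0.25 (0.887). Both had one WT shock library far above the other 4. Cdkn1a had 484 to 656 normalized counts in HT shock (median 602), against 483, 566, 949, 526 and 580 in WT shock replicates 1 to 5. Map3k6 had 113 to 165 in HT shock (median 141), against 131, 142, 274, 96.5 and 135 in WT shock. Replicate 3 was the high library in both.

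Of the genes of metabolism and lipid handling (7 genes), Pdk4 and Galnt15 were lower in both comparisons. Pdk4 (ENSMUSG00000019577, chromosome 6, 5483351 to 5496309, minus strand) encodes a kinase that inhibits pyruvate dehydrogenase and so spares glucose. It had 198 to 243 normalized counts in HT shock (median 222) and 192 to 319 in HT control (median 253). The WT shock libraries, in replicate order, had 271, 311, 380, 239 and 332, and WT control 234 to 344 (median 289). Only WT shock replicate 4 fell inside the HT shock range. The difference was -0.44 ± 0.12 after shock (limma adjusted p = 0.0290) and -0.30 ± 0.08 in the average (0.0211).

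Galnt15 (ENSMUSG00000021903, chromosome 14, 32028989 to 32062197, plus strand) encodes a transferase of the family that starts mucin-type glycosylation. It had 287 to 382 normalized counts in HT shock (median 354) and 340 to 439 in HT control (median 392). In WT shock, replicates 1 to 5 had 536, 390, 453, 393 and 415, and WT control 360 to 510 (median 397). All 6 HT shock libraries lay below all 5 WT shock libraries. Of the 30 genes, 2 separated in this way, Galnt15 and Fam107a, both lower in HT shock, where 4.82% of all genes tested did so in that direction and 3.75% in the other. The difference of Galnt15 was -0.34 ± 0.10 after shock (limma adjusted p = 0.0354) and -0.21 ± 0.07 in the average (0.0441).

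The other metabolic genes did not pass. Plin4, a lipid droplet coat gene, had 392 to 639 normalized counts in HT shock (median 518), against 1046, 440, 1204, 456 and 1119 in WT shock replicates 1 to 5. WT shock was split, with replicates 1, 3 and 5 above every HT shock library and replicates 2 and 4 within their range. Its difference was -0.62 ± 0.32 (limma adjusted p = 0.207). Xdh, the purine-degrading xanthine dehydrogenase, had 152 to 216 in HT shock (median 188), against 359, 189, 388, 185 and 197 in WT shock, a difference of -0.42 ± 0.24 (0.244). Replicates 1 and 3 were the high WT shock libraries there. Sult1a1, a phenol sulfotransferase, stood at -0.20 ± 0.13 (0.302), Cdo1, which oxidizes cysteine, at -0.03 ± 0.07 (0.815), and Angptl4, an inhibitor of lipoprotein lipase, at -0.03 ± 0.27 (0.960). Angptl4 was the lowest of the set, with 30.3 to 130 normalized counts over all libraries.

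The metallothionein genes Mt1 and Mt2 encode small proteins that bind zinc and copper, and they are neighbours on chromosome 8. Mt1 had 4001 to 4540 normalized counts in HT shock (median 4182) and 3294 to 4749 in HT control (median 4249). For WT shock, replicates 1 to 5 gave 4683, 4035, 5212, 4940 and 5002, and WT control 3799 to 4758 (median 4155). All WT shock libraries but replicate 2 lay above the HT shock range. The difference after shock was -0.18 ± 0.08 for Mt1 (limma adjusted p = 0.153) and -0.22 ± 0.10 for Mt2 (0.176), and neither passed. Shock differences in WT were 0.17 ± 0.08 for Mt1 and 0.21 ± 0.10 for Mt2, both with a limma adjusted p of 0.998. Only the window of Mt1 held the full receptor site, while both held matches of the loose pattern TGCNCNC.

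The last group (6 genes) held transporters, surface receptors, a matrix gene and Fam107a, which is none of these. It gave no call after shock and 1 in the average over treatments, Fam107a. Fam107a (ENSMUSG00000021750, chromosome 14, 8296274 to 8318023, minus strand) encodes an actin-binding protein that stress and glucocorticoids raise in rodent brain. It had 11145 to 12110 normalized counts in HT shock (median 11622) and 10274 to 12330 in HT control (median 11652). The WT shock libraries, in replicate order, had 13438, 12279, 16759, 12427 and 12455, and WT control 10613 to 14260 (median 12086). HT shock and WT shock did not overlap, and WT shock replicate 3 stood far above its group. The difference was -0.20 ± 0.07 after shock (limma adjusted p = 0.0609) and -0.14 ± 0.05 in the average (0.0429).

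Slc2a1, the glucose transporter of the blood-brain barrier, had 2450 to 3008 normalized counts in HT shock (median 2704), against 3136, 2708, 3766, 3010 and 3195 in WT shock replicates 1 to 5. The groups overlapped through WT shock replicate 2 alone, and replicate 4 lay just above the HT shock range. Its difference after shock was -0.22 ± 0.08 (limma adjusted p = 0.0725). Mfsd2a, a barrier transporter of lysolipids, stood at -0.24 ± 0.11 (0.154). The phagocytic receptor gene Mertk stood at -0.18 ± 0.09 (0.176), the interleukin receptor gene Il6ra at -0.22 ± 0.20 (0.516), and Pxdn, which crosslinks basement membrane collagen, at -0.07 ± 0.07 (0.570).

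**Figure D5:**
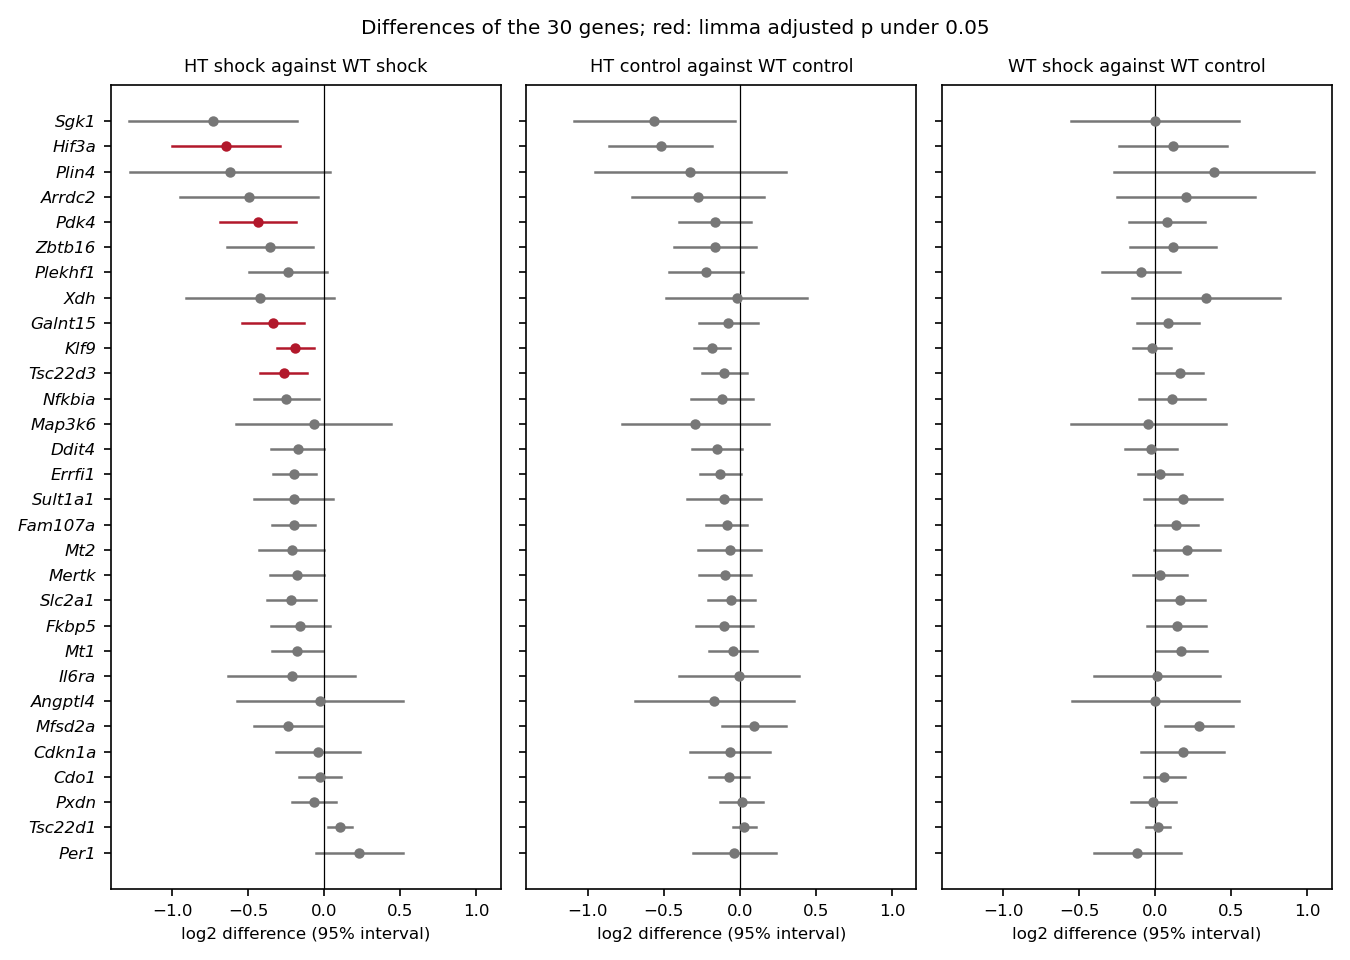
Log2 differences of the 30 genes with 95% intervals in HT shock against WT shock, HT control against WT control and WT shock against WT control; red marks a limma adjusted p under 0.05. In the first panel 28 of 30 points lie below 0 and 5 are red, and in the last panel 23 lie above 0 and none is red.

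Foot-shock itself was compared within each genotype. In HT shock against HT control no member passed and none of all genes did (0.0%, with 2352 genes, 13.7%, at an unadjusted p under 0.05). Members split into 13 above and 17 below 0 (49.0% of all genes were below), with a median of -0.01. Tsc22d1 stood at 0.09 ± 0.04 (limma adjusted p = 0.306), Cdo1 at 0.10 ± 0.06 (0.465) and Cdkn1a at 0.20 ± 0.13 (0.469). Below 0 were Galnt15 at -0.17 ± 0.09 (0.406), Pdk4 at -0.20 ± 0.12 (0.442) and Pxdn at -0.09 ± 0.07 (0.535). Sgk1 differed by -0.17 ± 0.25 (0.785), Tsc22d3 by -0.01 ± 0.07 (0.971) and Per1 by 0.15 ± 0.13 (0.621). Without HT control replicate 6, Tsc22d1 was higher in HT shock (limma adjusted p = 0.0246), when 4.49% of all genes were higher and 7.58% lower. The other 29 members did not pass there.

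In WT shock against WT control no member passed and none of all genes did (0.0%). At an unadjusted p under 0.05 there were 4 members and 637 of all genes (3.72%). Here 23 of 30 differences were above 0 and 7 below (50.2% of all genes were below), with a median of 0.10. Mfsd2a stood at 0.29 ± 0.11, Mt1 at 0.17 ± 0.08, Tsc22d3 at 0.16 ± 0.08 and Slc2a1 at 0.16 ± 0.08, each with a limma adjusted p of 0.998. Below 0 were Per1 at -0.12 ± 0.14, Plekhf1 at -0.09 ± 0.12 and Ddit4 at -0.03 ± 0.08, with the same adjusted p. Sgk1 had medians of 3463 normalized counts in WT shock and 3685 in WT control, and its 95% interval ran from -0.56 to 0.55. Without WT shock replicate 3, 17 differences were above 0 and 13 below, and the median was 0.02. Markers of cell types that express some of the set stood above 0 in this comparison too, with none passing. They were 15 of 15 endothelial markers (median 0.15), 12 of 13 of mural cells (0.16), 11 of 13 of oligodendrocytes (0.09) and 11 of 14 of astrocytes (0.05). Markers of microglia (11 of 12, median 0.09), choroid plexus and ependyma (10 of 10, 0.17) and blood (5 of 5, 0.25) did so as well, and 9 of 11 neuronal markers were below 0 (-0.02). Mfsd2a and Slc2a1 are transporters of the endothelial barrier, and the part of the cell types in these values was not tested.

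The interaction of genotype and shock, the shock difference in HT minus that in WT, gave no member and none of all genes (0.0%). At an unadjusted p under 0.05 there were 1 member, Mfsd2a, and 1101 of all genes (6.43%). Of the 30 values 24 were below 0 (50.2% of all genes), with a median of -0.12, which was -0.04 without WT shock replicate 3. Mfsd2a stood at -0.33 ± 0.15 (limma adjusted p = 0.771), Galnt15 at -0.26 ± 0.14 (0.773) and Pdk4 at -0.27 ± 0.17 (0.787). Above 0 were Tsc22d1 at 0.08 ± 0.05 (0.807), Per1 at 0.27 ± 0.19 (0.813) and Map3k6 at 0.22 ± 0.34 (0.909). The interaction of Hif3a was -0.12 ± 0.24 (0.926), that of Klf9 -0.01 ± 0.08 (0.985) and that of Sgk1 -0.17 ± 0.37 (0.935). Tsc22d3 stood at -0.17 ± 0.10 (0.790) and Fkbp5 at -0.06 ± 0.13 (0.940). The 95% interval of the interaction ran from -0.61 to 0.37 for Hif3a and from -0.94 to 0.60 for Sgk1. Cell type markers lay below 0 here as well, with none passing. They were 14 of 15 endothelial markers (median -0.29), 13 of 13 of mural cells (-0.24), 13 of 13 of oligodendrocytes (-0.17), 13 of 14 of astrocytes (-0.13), 11 of 12 of microglia (-0.16), 9 of 10 of choroid plexus and ependyma (-0.16) and 5 of 5 of blood (-0.34). Of 11 neuronal markers 8 were above 0 (0.06). Their part in the interaction of the set was not tested.

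Averaged over genotypes, shock against control gave no member and none of all genes (0.0%). At an unadjusted p under 0.05 there were 2 members, Tsc22d1 and Cdkn1a, and 1554 of all genes (9.08%). Of the 30 values 20 were above 0 and 10 below (48.3% of all genes were below), with a median of 0.06, which was 0.01 without WT shock replicate 3. Tsc22d1 was at 0.06 ± 0.03 and Cdkn1a at 0.19 ± 0.09 (limma adjusted p = 0.541 for both), and Mt1 at 0.10 ± 0.06 (0.552). On the other side were Plekhf1 at -0.10 ± 0.09 (0.677), Pxdn at -0.05 ± 0.05 (0.699) and Pdk4 at -0.06 ± 0.08 (0.814). Fkbp5 stood at 0.11 ± 0.07 (0.572), Tsc22d3 at 0.08 ± 0.05 (0.615), Sgk1 at -0.09 ± 0.18 (0.879) and Per1 at 0.01 ± 0.10 (0.964), whose sign changed in several alternatives. Without HT control replicate 6, 686 of all genes passed (2.92% lower and 1.09% higher) and no member did.

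The rest of the pathway was read from lists of genes that are not members. Of all genes tested, 5.33% were lower and 3.95% higher after shock, and 8.62% and 5.42% in the average over treatments. Without WT shock replicate 3 these shares were 2.06% and 2.16% after shock, and 6.26% and 3.98% in the average. Counts called in these lists, and in the hypoxia and cell type lists below, are to be read beside those shares. Among receptors, steroid enzymes and stress peptides, 11 of 13 listed genes were tested. Crhbp, whose protein binds and holds corticotropin-releasing hormone, was the single gene of that list to pass after shock, higher in HT shock at 0.43 ± 0.09 (limma adjusted p = 0.0065). In the average over treatments Crhbp was higher at 0.30 ± 0.06 (0.0039) and Nr3c2, the mineralocorticoid receptor gene, was lower at -0.15 ± 0.03 (0.0080). Crhbp was also higher in both comparisons, and Nr3c2 lower in the average, with WT shock replicate 3 left out. Nr3c1, which encodes the glucocorticoid receptor itself, differed by -0.10 ± 0.08 after shock (0.457).

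Chaperones of the receptor numbered 12, and all 12 differences after shock were above 0, opposite in sign to most of the induced genes. Stub1, a chaperone-linked ubiquitin ligase gene, was the only one to pass, at 0.17 ± 0.05 (limma adjusted p = 0.0295). In the average, Stub1 at 0.13 ± 0.03 (0.0139) and Cdc37, an Hsp90 cofactor gene, at 0.13 ± 0.04 (0.0174) were higher. When WT shock replicate 3 was left out, the chaperone genes Dnajb1, Hsp90aa1 and Hspa8 were higher after shock and Stub1 did not pass (0.0727), and 4 of the 12 were higher in the average. Summed chaperone genes ranged from 179515 to 188973 normalized counts in HT shock, against 154512 to 196403 in WT shock (median 161322). WT shock replicate 3 was the highest library of WT shock and WT control replicate 6, at 188588, the highest of WT control (median 161480). These were the same libraries that were highest in the induced genes. The part of that in the results was not tested.

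Coregulators of the receptor (12 genes) gave 1 lower gene after shock, the coactivator gene Ncoa2 at -0.27 ± 0.08 (limma adjusted p = 0.0417). In the average Ncoa1 at -0.12 ± 0.03 (0.0243) and Ncoa2 at -0.19 ± 0.06 (0.0291) were lower. Of 26 further glucocorticoid-responsive genes tested (28 listed), 2 were lower and 1 higher after shock, with a median of -0.10. Among all genes tested 5.33% were lower and 3.95% higher. Foxo1, a transcription factor gene of insulin signalling, was lower at -0.33 ± 0.06 (0.0035). Glul, the glutamine synthetase gene of astrocytes, was lower at -0.20 ± 0.04 (0.0063). Mical2, an actin-oxidizing enzyme gene, was higher at 0.18 ± 0.06 (0.0387). The same 3 passed in the average, Foxo1 at -0.31 ± 0.04 (0.0005), Glul at -0.15 ± 0.03 (0.0025) and Mical2 at 0.17 ± 0.04 (0.0077). Foxo1, Glul and Mical2 passed in both comparisons without WT shock replicate 3 as well, while Ncoa2 passed in neither (0.102 after shock and 0.0572 in the average).

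With all libraries, no gene of these lists passed in HT control against WT control, in either shock comparison, in the interaction or in shock averaged over genotypes. Nearest to the threshold was Foxo1 in HT control against WT control at -0.28 ± 0.05 (limma adjusted p = 0.0861). Without HT control replicate 6, 6 of the 61 genes tested in these lists passed in HT shock against HT control (2 higher, 4 lower). In shock averaged over genotypes 4 passed (1 higher, 3 lower). Of all genes tested, 4.49% were higher and 7.58% lower in the former, and 1.09% and 2.92% in the latter. In HT shock against WT shock 16 of the 61 passed without that library (7 higher, 9 lower), against 6 with all libraries (3 higher, 3 lower). Of all genes tested, 7.1% were higher and 9.98% lower without it, against 3.95% and 5.33% with all libraries.

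Hif3a also belongs to the hypoxia response, and Per1 is induced by neuronal activity, so both programmes were read beside the set. Of 14 hypoxia response genes, Ldha, the lactate dehydrogenase gene, was higher after shock at 0.24 ± 0.05 (limma adjusted p = 0.0124). In the average over treatments Ldha at 0.20 ± 0.04 (0.0025) and Pgk1 at 0.07 ± 0.02 (0.0380) were higher, and none was lower. Ldha passed in both with WT shock replicate 3 left out, and Pgk1 did not (0.0733). The list's median after shock was -0.008. None of 16 immediate early genes passed in any comparison. Their differences in HT shock against WT shock were all above 0 (50.8% of all genes were), with a median of 0.36 and Egr3 lowest at 0.0004. Their summed levels overlapped, at 26315 to 43135 normalized counts in HT shock and 20396 to 34849 in WT shock. Those with the smallest p were Egr4 at 0.45 ± 0.17 (limma adjusted p = 0.0904) and Dusp6 at 0.36 ± 0.14 (0.0950).

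Markers of the cell types that express many of these genes moved in part with the comparison. In HT shock against WT shock, 7 of 13 oligodendrocyte markers were lower and all 13 differences were below 0, with a median of -0.24. Their summed level was 196195 to 245474 normalized counts in HT shock, 223156 to 251409 in HT control, 236616 to 298786 in WT shock and 217638 to 271410 in WT control. Of 14 astrocyte markers 3 were lower, with a median of -0.11, and their sums were 122958 to 138411 in HT shock, 124043 to 146167 in HT control, 140407 to 148544 in WT shock and 134980 to 145644 in WT control. The astrocyte sums of HT shock and WT shock did not overlap. Of 15 endothelial markers 1 was higher and none lower, with a median of -0.14, and their sums overlapped (6303 to 8527 in HT shock and 7143 to 8644 in WT shock). No marker of mural cells (13 genes, median -0.02), microglia (12, 0.08), choroid plexus and ependyma (10, 0.06) or blood (5, -0.22) passed, and of 11 neuronal markers 2 were higher and 2 lower (median 0.05). With WT shock replicate 3 left out, 4 oligodendrocyte and 2 astrocyte markers were lower, no endothelial marker passed and 1 neuronal marker was higher. The oligodendrocyte median was then -0.28, all 13 being below 0, and the astrocyte median -0.12. With HT control replicate 6 left out, 7 oligodendrocyte and 5 astrocyte markers were lower, and of the endothelial markers 1 was higher and 2 lower. In the average over treatments, 6 of 13 oligodendrocyte markers were lower and all 13 below 0 (median -0.17), and 3 of 14 astrocyte markers were lower and 1 higher (-0.06). Of the endothelial markers 2 of 15 were higher (0.02), and of the neuronal markers 2 were higher and 3 lower (0.02). No marker of mural cells (median 0.09), microglia (0.18), choroid plexus and ependyma (0.22) or blood (-0.03) passed there. In that average 8 oligodendrocyte and 2 astrocyte markers were lower with WT shock replicate 3 left out. No marker of these lists was at 0 in any library. The part of the cell types in the lower glucocorticoid-induced genes was not tested, in either comparison.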

How the data were processed

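The authors deposited one table of normalized counts with decimals, a signal for each gene in each library. Per the submitters' processing notes, the tools were Salmon 1.1.0, R 3.6.2 and DESeq2 1.26.0 and the build GRCm38, without roles or order; libraries were made with a stranded mRNA kit per the labels' protocols. The filter that left 18578 genes (lowest gene mean 3.08) was not given in the sources used here. Whole reads could not be recovered: 23.2% to 56.3% of low values (under 20) lay within 0.1 of a multiple of their library's step. No count model was therefore fitted, counting error is unknown, and 1 of 24 library columns matched no sample and was not used.

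Groups and replicate numbers came from the titles. The 17118 genes whose mean reached 10 were analysed as log2(normalized count + 1) with limma 3.58.1 (statmod 1.5.0, R 4.3.3) as 4 group means in 1 model with trended, robust moderation. Adjusted p is Benjamini-Hochberg over all genes tested, threshold 0.05; ± is the SE of a difference unless SD is stated. Symbols were found for 18563 of 18578 IDs, with positions from the GENCODE annotation of GRCm38. The model was tested on simulated data. The members and lists were chosen with earlier results of these data known. Every member is accounted for, with full statistics for members called in any comparison, for the 3 with the smallest p in each direction and for Fkbp5, Sgk1, Tsc22d3 and Per1; of other lists the rule named called genes or else the 2 with the smallest p, of which those that no result turns on are left out, and 1 is not reported here. Alternatives were median centring, no filter, a stricter filter (at least 20 in 5 libraries or more), a pseudocount of 0.5 or 5, only the groups compared, the replicate number as a block by title or bracketed number, library weights and the omission of each library. Figures were drawn with matplotlib 3.10.9 (Python 3.11.15, pandas 2.3.3, numpy 2.4.6).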

Additional observations from a re-analysis of the deposited data

Results flagged for a closer look

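Of 124 checks of a gene or of the mean deviation within a group (Dixon's test at the 95% level, which chance alone passes in about 1 in 20 groups), 10 found a library far from the others of its group. WT shock replicate 3 was the high library for 4 genes. It had 949 normalized counts of Cdkn1a (483 to 580 in the other WT shock libraries), 274 of Map3k6 (96.5 to 142), 772 of Cdo1 (641 to 677) and 16759 of Fam107a (12279 to 13438). WT control replicate 6 was the high library for 3 genes, with 3486 of Tsc22d3 (2653 to 2905 in the other WT control libraries), 696 of Cdkn1a (474 to 518) and 130 of Angptl4 (37.0 to 58.0). HT control replicate 2 had 393 of Hif3a (211 to 273 in the other HT control libraries). On the low side, HT control replicate 6 had 5669 of Klf9 (6691 to 7058 in the others), and WT shock replicate 2 had 1807 of Pxdn (2096 to 2154).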

How the results depend on the processing

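Counts of members called did not move beyond the tolerance set for counts under median centring, either filter or either pseudocount. Small changes within that tolerance were not listed. In HT shock against WT shock the member count of 5 was 10 with only the groups compared (9 lower, 1 higher) and 9 with library weights (8 lower, 1 higher). It was 3 with HT control replicate 6 and WT shock replicate 3 both left out, and it ranged from 0 to 8 with single libraries left out. The 1589 calls among all genes rose as well, to 2932 with only the groups compared (1678 lower, 1254 higher). With library weights they were 3775 (12.1% of all genes tested lower and 9.99% higher). They were 422 to 2923 with single libraries left out. For genotype averaged over treatments the member count of 8 was 5 with weights (9.35% of all genes lower and 6.3% higher), 2 with both libraries left out and 4 to 12 with single libraries left out, and the 2404 calls among all genes were 1517 with both libraries left out and 1685 to 3088 with single libraries left out.

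In HT shock against HT control, 1 member (Tsc22d1, higher) passed with weights, with both libraries left out, or in 1 of the single omissions (range 0 to 1). All genes called there numbered 1 with only the groups compared, 2792 with weights, 2109 with both left out and 0 to 2065 with single libraries left out. Shock averaged over genotypes gave 574 genes with weights, 853 with both left out and 0 to 686 with single omissions. The interaction gave 2 genes with weights, 1 with both left out and 0 to 1 with single omissions, and HT control against WT control 0 to 2.

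Whether replicate numbers pair the libraries could not be settled, since libraries of unlike number were not compared. Over 33 same-numbered pairs, correlations of deviations from group means lay between -0.154 and 0.194 by title number. By bracketed number they lay between -0.114 and 0.194. With the replicate number as a block by title, the count of HT shock against WT shock was 1 member and 450 genes, and 1505 genes for genotype averaged over treatments, where the member count was again 8. By bracketed number it was 3 members and 976 genes.

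Sign changed only for values that did not pass. Sgk1 in WT shock against WT control was 0.0043 with median centring, 0.060 with the bracketed block and -0.16 to 0.16 with single omissions. Per1 in shock averaged over genotypes was -0.0058 with the title block, -0.014 with weights, -0.025 with both libraries left out and -0.023 to 0.058 with single omissions. The interaction of Fkbp5 was 0.051 with both left out and -0.12 to 0.029 with single omissions. With single omissions Ddit4 ranged from -0.081 to 0.00048 and Plekhf1 from -0.16 to 0.020 in WT shock against WT control, Per1 from -0.12 to 0.040 and Pxdn from -0.051 to 0.050 in HT control against WT control, and Tsc22d3 from -0.051 to 0.034 in HT shock against HT control. The causes were not tested. Of 2148 member values under alternatives, from 66 results, 2015 kept direction and side of the threshold, 90 lost the call, 10 gained it and 33 changed sign. Only the 5 calls after shock and the 8 in the average over treatments could lose a call. Leaving out a library outside a comparison of 2 groups left the estimate unchanged, so the number kept does not measure how stable the calls were. Sequencing depth and counting error are unknown and limit the low genes most.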
